A study of Equus caballus with 6 samples.

Results

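Expression of 10 genes of the Hippo pathway was measured in the inner cell mass (ICM) and the trophectoderm (TE) of horse (Equus caballus) blastocysts. The genes were chosen by symbol: the transcription factors TEAD1, TEAD3 and TEAD4, the coactivators YAP1 and WWTR1, the kinases LATS1 and LATS2, the scaffolds AMOT and AMOTL2, and the target gene ANKRD1. All 10 were found among the 12270 rows of the deposited table, each in a single row. The ICM group held 3 libraries (labelled 15, 22 and 25) and the TE group held 3 libraries (labelled 16, 23 and 24), all from embryos collected on day 8 after development in superovulated mares. Per the labels, every blastocyst was treated with Pronase, a mixture of proteases, before TE was isolated mechanically and immunosurgery, the lysis of outer cells with antibody and complement, gave the ICM. Tissue and isolation method therefore coincide and cannot be told apart in any comparison below. No label gives the genotype, breed or sex of the embryos, and none says which ICM and TE shared an embryo.

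The Hippo pathway couples cell polarity and contact to transcription. The kinases LATS1 and LATS2 phosphorylate the coactivators YAP1 and TAZ (the product of WWTR1), which keeps them in the cytoplasm. Unphosphorylated YAP1 and TAZ enter the nucleus and bind TEAD factors. In the mouse blastocyst, where the pathway is best known, the polarised outer cells keep YAP1 nuclear and TEAD4 drives trophectoderm genes such as Cdx2 and Gata3, while in the inner cells angiomotins activate the LATS kinases and YAP1 is held out of the nucleus. The pathway acts through phosphorylation and localisation of proteins, neither of which RNA levels record.

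Gene reads numbered 6526212 to 10686659 in each library. Of the 12 trophectoderm markers listed, 8 were in the table, and their summed level was 26.9 to 56.6 RPKM (reads divided by gene length in kilobases and by a measure of depth) in ICM and 127 to 160 RPKM in TE. Of the 12 epiblast markers (epiblast is the pluripotent part of the ICM), 10 were in the table, with a summed level of 116 to 225 RPKM in ICM and 118 to 149 RPKM in TE. NANOG, SOX2, KLF4, GDF3 and PRDM14 were higher in every ICM library than in any TE library, and SOX2 was listed at 0 in every TE library. POU5F1, DPPA2, DPPA4 and LIN28B overlapped between the tissues, and ZFP42 was higher in every TE library. ICM 25 stood apart from the other libraries. It had 1.75 RPKM of the epiblast factor NANOG, where ICM 15 and 22 had 14.1 and 12.4 RPKM. SOX2, POU5F1, PRDM14, DPPA4 and LIN28B were also lowest in ICM 25 among the ICM libraries. POU5F1 had 36.0 RPKM there, where ICM 15 and 22 had 93.1 and 102 RPKM. The levels of KLF4, GDF3, DPPA2 and ZFP42 in ICM 25, though, lay between those of ICM 15 and 22. ICM 25 had 4370 genes at 5 RPKM or more, where the other 5 libraries had 5213 to 5536. Its factor in a median of ratios rescaling was 0.764, against 1.01 to 1.12 in the others. In these samples, which each hold many cells, fewer cells of a type and less RNA per cell cannot be told apart.

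The levels of the 10 genes spanned more than an order of magnitude. TEAD1 led in each tissue, with 39.5 ± 8.60 RPKM in ICM and 45.8 ± 9.14 RPKM in TE (mean ± SD, n = 3 each), and AMOTL2 the least, at 1.54 ± 0.19 RPKM in ICM and 1.71 ± 0.35 RPKM in TE. In ICM the order of the means below TEAD1 was WWTR1, TEAD4, LATS1, ANKRD1, YAP1, AMOT, LATS2, TEAD3 and AMOTL2. Of these neighbours in ICM, the values of YAP1 and AMOT did not overlap, and all other neighbouring pairs, TEAD1 and WWTR1 excepted, did. In TE the order was TEAD4, WWTR1, YAP1, LATS1, AMOT, TEAD3, ANKRD1, LATS2 and AMOTL2, and the neighbours that did not overlap were TEAD4 and WWTR1, LATS1 and AMOT, and TEAD3 and ANKRD1. ANKRD1 thus stood among the upper genes in ICM and among the lowest in TE. Within each library, TEAD1 ranked in the top 3.94% to 9.19% of all rows, YAP1 in the top 16.4% to 22.2% and LATS2 in the top 38.4% to 66.9%. ANKRD1 had the widest range of rank, from the top 15.9% to the top 91.4%.

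**Figure D1:**
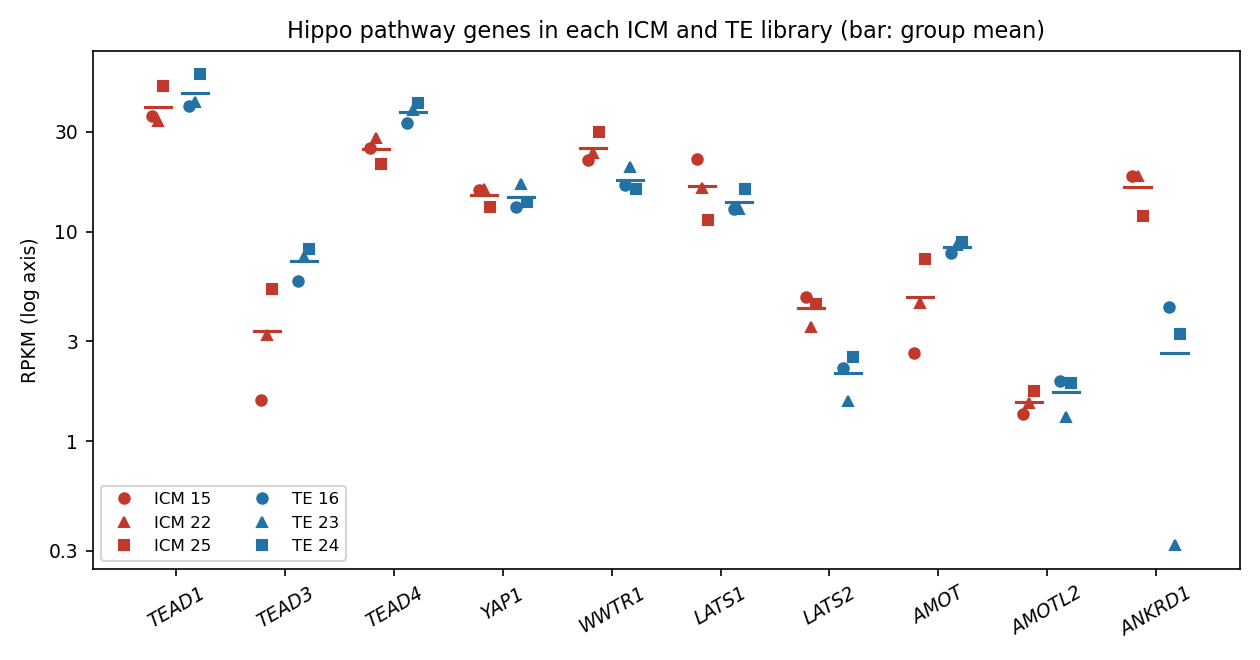
RPKM (log axis) of the 10 genes in each library, with ICM in red left of TE in blue and bars at the group means; symbol shapes name libraries and do not pair them. ICM and TE values are apart for TEAD3, TEAD4, WWTR1, LATS2, AMOT and ANKRD1, and ANKRD1 spans 0.319 to 18.5 RPKM.

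Which genes of the pathway differ in RNA level between the tissues was asked by setting ICM against TE. One of the 10 genes, ANKRD1, passed the threshold of 0.05 (limma on log2(RPKM + 1), Benjamini-Hochberg adjusted over 9436 genes), and 5 of the 10 had an unadjusted p under it, as 16.9% of all genes did. The background was 1.87% of genes called over the whole table, with 88 genes (0.933%) higher in ICM and as many (0.933%) higher in TE. After median of ratios rescaling, which called 2.2%, the split over the whole table was 126 genes up in ICM and 82 up in TE. Quantile normalization called 2.18% of genes, 129 up in ICM and 77 up in TE. Over all genes tested, the log2 difference had a median of -0.15, and -0.03 after that rescaling, so small differences are read relative to this shift. For 6 of the 10 genes the ICM and TE values did not overlap, where 24.6% of all genes tested did not. LATS2, WWTR1 and ANKRD1 lay higher in ICM, where 6.81% of all genes tested did, and TEAD3, TEAD4 and AMOT lay higher in TE, where 17.8% did. After rescaling this count was 5 of 10, against 25.2% of all genes: the values of TEAD3 and AMOT then overlapped and those of LATS1 no longer did.

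**Figure D2:**
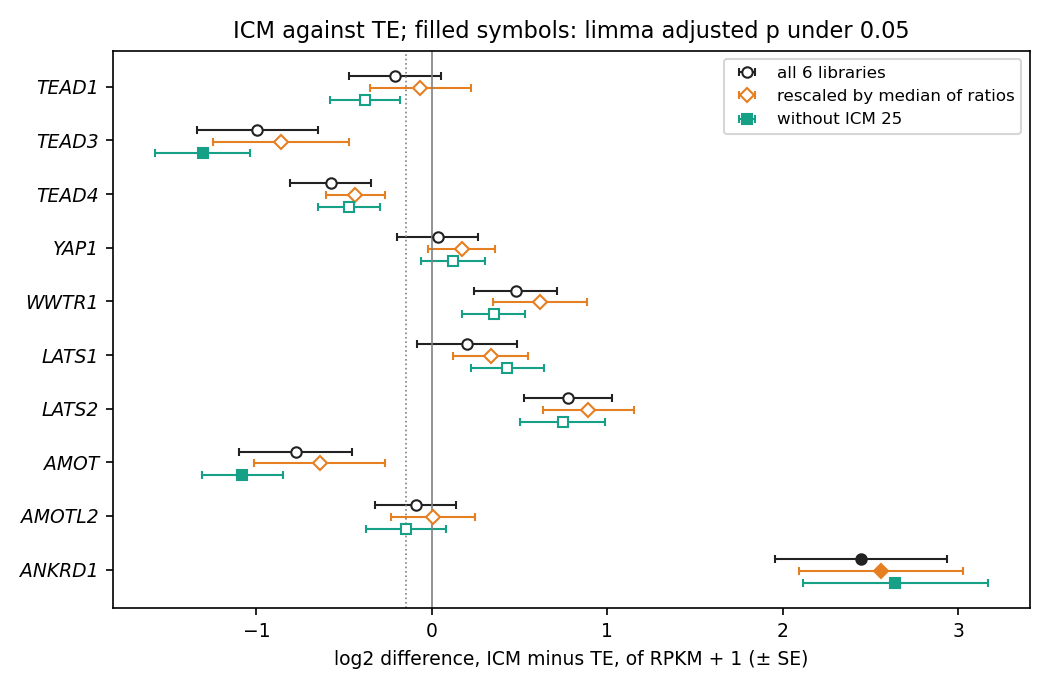
Log2 difference of ICM minus TE on the log2(RPKM + 1) scale with its SE, with all libraries, after median of ratios rescaling and without ICM 25; filled symbols passed at 0.05 and the dotted line marks the median of all genes (-0.15). ANKRD1 passed in all 3 fits, and TEAD3 and AMOT passed without ICM 25.

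ANKRD1, which encodes an ankyrin repeat protein of the nucleus and the sarcomere and is a textbook target of YAP1 and TAZ, rose in ICM. Its deposited position is chr1:37673788-37681932, in a build that is not named. It had 18.5, 18.4 and 11.9 RPKM in ICM 15, 22 and 25, against 4.37, 0.319 and 3.26 RPKM in TE 16, 23 and 24. Every ICM library was above every TE library, and TE 23 was far below the other TE libraries, with 6 reads where TE 16 and 24 had 112 and 81. The ICM libraries had 445, 537 and 281 reads. The log2 difference was 2.44 (SE 0.49, 95% interval 1.33 to 3.55, limma adjusted p = 0.047). In the authors' deposited table the mean of ICM was 6.13 times that of TE (DESeq adjusted p = 1e-29).

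The ANKRD1 call lay close to the threshold. It was lost in 9 of 14 alternatives, all with ICM higher, and adjusted p ranged up to 0.152, which was reached without TE 23, where the log2 difference was 1.82. The share of all genes called in the alternatives that lost it was 1.49% with a filter of 5 RPKM, 0.929% with no filter, 1.19% with a pseudocount of 0.1, 1.32% by voom, 0.191% without ICM 15, 0.805% without ICM 22, 0.0% without TE 16 and 0.0106% without TE 23 and, likewise, without TE 24. It held without ICM 25 (log2 difference 2.64, limma adjusted p = 0.019). ANKRD1 is also a gene of heart and skeletal muscle. Of 13 markers of these muscles, 4 were in the table, and their summed level was 18.3, 6.45 and 8.78 RPKM in ICM 15, 22 and 25, against 1.38, 1.84 and 3.04 RPKM in TE 16, 23 and 24. ACTC1, cardiac actin, made up 14.0, 1.78 and 2.70 RPKM of the sum in ICM 15, 22 and 25 and was listed at 0 in TE 16. ACTC1, TNNI3 and ACTA1 were higher in every ICM library than in any TE library, and TNNC1 overlapped between the tissues. Of 10 markers of smooth muscle and fibroblasts, 4 were in the table, at 21.8 to 45.1 RPKM in sum in ICM and 4.41 to 6.19 RPKM in TE. ACTG2 and COL1A2 made up most of that sum in ICM 15 and 22. ACTA2 and TAGLN overlapped between the tissues, with ACTA2 at 0.295, 2.01 and 9.51 RPKM in ICM 15, 22 and 25, against 2.41, 3.70 and 2.40 RPKM in TE 16, 23 and 24. The part of such cells in the ANKRD1 difference was not tested.

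The profiles most like that of ANKRD1 were those of F2RL1, a protease-activated receptor, PLP2, a membrane proteolipid, and FLRT3, a leucine-rich repeat membrane protein. Likeness was the root mean square difference between centred log2(RPKM + 1) values over the 6 libraries, and these genes were at 0.42, 0.56 and 0.56 among 9435 genes. F2RL1 had 24.7, 18.6 and 6.88 RPKM in ICM 15, 22 and 25, against 2.96, 0.722 and 4.003 RPKM in TE 16, 23 and 24. Its lowest value, like that of ANKRD1, was in TE 23. The choice by likeness used that library, so this is not a separate observation.

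Of the 2 LATS kinases, LATS1 had the higher level in every library, and neither was called. LATS1 (chr31:17101429-17126328) had 22.3, 16.1 and 11.4 RPKM in ICM 15, 22 and 25, against 12.8, 12.8 and 16.0 RPKM in TE 16, 23 and 24. The groups overlapped, with the highest and the lowest value both in ICM (log2 difference 0.20, 95% interval -0.44 to 0.84, limma adjusted p = 0.78). LATS2 (chr17:1848027-1930394) had 4.89, 3.52 and 4.51 RPKM in ICM 15, 22 and 25, against 2.24, 1.55 and 2.53 RPKM in TE 16, 23 and 24. All ICM values were above all TE values, but LATS2 did not pass (log2 difference 0.78, SE 0.25, 95% interval 0.21 to 1.34, limma adjusted p = 0.17). The authors' deposited table gives LATS2 a DESeq adjusted p of 0.0088. LATS2 is itself among the reported targets of YAP1 and TAZ, as a negative feedback.

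LATS1 made up most of the LATS RNA in every library. LATS2 took 18.0%, 18.0% and 28.4% of the summed LATS level in ICM 15, 22 and 25, against 14.9%, 10.8% and 13.7% in TE 16, 23 and 24. A ratio of this kind does not depend on how the libraries were scaled. The log2 ratio of LATS2 to LATS1 was -1.90 ± 0.49 in ICM and -2.74 ± 0.27 in TE (difference 0.84, exact permutation test, two-sided, p = 0.1, and 0.17 adjusted over the 5 ratios formed). The value of 0.1 is the smallest that 3 libraries against 3 allow, so no ratio could pass. Without ICM 25 the difference was 0.55. The profiles most like that of LATS2 were those of RAB27A, a GTPase of vesicle docking, S100A10, a partner of annexin A2, and FNBP1L, an actin regulator, at 0.049, 0.12 and 0.12.

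**Figure D3:**
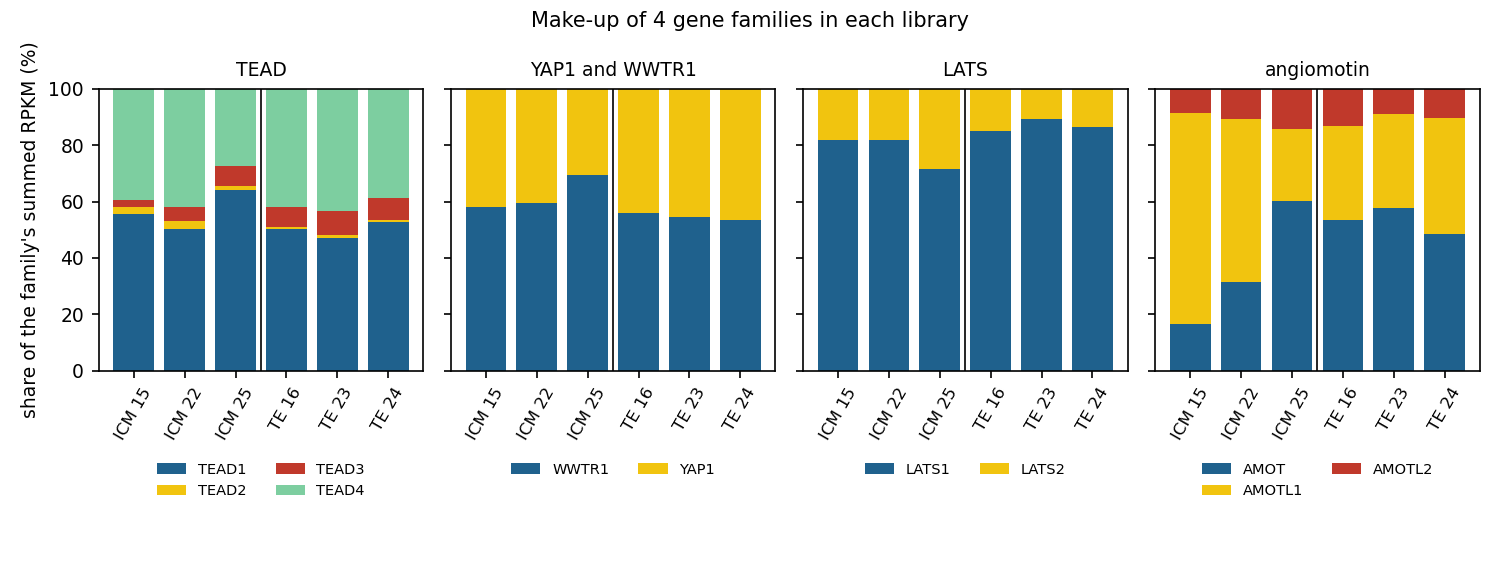
Share of each gene (percent) in the summed RPKM of its family in each library, with ICM left and TE right of the line in each panel. LATS2 takes a larger share in every ICM library than in any TE library, and AMOT ranges from 16.5% to 60.4% of the angiomotins within ICM.

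Of the coactivators, WWTR1 lay higher in ICM and YAP1 was close to equal. YAP1 (chr7:12113264-12216880) had 15.8, 16.0 and 13.1 RPKM in ICM 15, 22 and 25, against 13.1, 16.9 and 13.9 RPKM in TE 16, 23 and 24. The groups overlapped, and the log2 difference was 0.03 with a 95% interval of -0.49 to 0.56, which leaves room for a difference in either direction (limma adjusted p = 0.96). WWTR1 (chr16:82236057-82353127) had 21.9, 23.6 and 29.8 RPKM in ICM 15, 22 and 25, against 16.7, 20.3 and 16.0 RPKM in TE 16, 23 and 24. The lowest ICM value was just above the highest TE value, and WWTR1 did not pass (log2 difference 0.48, SE 0.24, 95% interval -0.06 to 1.02, limma adjusted p = 0.36).

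WWTR1 exceeded YAP1 in all 6 libraries. The ratio of WWTR1 to YAP1 was 1.39, 1.48 and 2.28 in ICM 15, 22 and 25, against 1.28, 1.20 and 1.16 in TE 16, 23 and 24. All ICM ratios were above all TE ratios (log2 difference 0.46, exact permutation p = 0.1, two-sided, adjusted p = 0.17). Much of the difference lay in ICM 25, without which it was 0.24.

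The 4 TEAD factors, which bind DNA and recruit YAP1 or TAZ, were led by TEAD1 and TEAD4. TEAD4 (chr6:30931802-30968566), the member tied to trophectoderm formation in mouse, had 25.0, 28.1 and 21.1 RPKM in ICM 15, 22 and 25, against 32.8, 38.0 and 41.1 RPKM in TE 16, 23 and 24. All TE values were above all ICM values, also after rescaling. The difference did not pass (log2 difference -0.58, SE 0.23, 95% interval -1.10 to -0.05, limma adjusted p = 0.26). It was -0.43 relative to the median of all genes. TEAD4 did not pass in any of its 14 alternatives, with TE higher throughout. TEAD4 RNA was thus present in ICM at 24.7 ± 3.51 RPKM, against 37.3 ± 4.21 RPKM in TE (SD, n = 3 each), with 718 to 1182 reads per ICM library.

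TEAD1 (chr7:81520734-81764422) had 35.5, 33.7 and 49.4 RPKM in ICM 15, 22 and 25, against 39.5, 41.5 and 56.3 RPKM in TE 16, 23 and 24. The groups overlapped (log2 difference -0.21, 95% interval -0.80 to 0.38, limma adjusted p = 0.74). TEAD3 (chr20:35545161-35556113) had 1.57, 3.21 and 5.30 RPKM in ICM 15, 22 and 25, against 5.80, 7.59 and 8.24 RPKM in TE 16, 23 and 24. Every TE value was above every ICM value, by a small margin over ICM 25. With all libraries TEAD3 did not pass (log2 difference -0.99, SE 0.34, limma adjusted p = 0.19). Without ICM 25 it did (log2 difference -1.31, adjusted p = 0.022), in a fit that called 11.5% of all genes. Without ICM 15 the difference was -0.66 (adjusted p = 0.32). It also passed with library weights (8.05% of all genes called), and in the authors' deposited table its DESeq adjusted p was 0.020.

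TEAD2, outside the 10 genes, lay the other way, with 1.51, 1.79 and 1.15 RPKM in ICM 15, 22 and 25, against 0.463, 0.965 and 0.842 RPKM in TE 16, 23 and 24 (log2 difference 0.50, SE 0.24, limma adjusted p = 0.34). The summed level of the 4 TEADs was 69.1 ± 6.96 RPKM in ICM and 91.1 ± 14.2 RPKM in TE. TEAD4 took 39.4%, 42.1% and 27.4% of this sum in ICM 15, 22 and 25, against 41.7%, 43.2% and 38.6% in TE 16, 23 and 24. The shares overlapped (difference -4.88 percentage points, exact permutation p = 0.5, two-sided, and 0.5 adjusted over the 5 ratios), and the difference was -0.45 without ICM 25 and -7.77 without ICM 22. How reads shared by TEAD paralogs were counted is not given in the sources used here. Profiles most like that of TEAD4 belonged to PDE4DIP, a centrosome and Golgi protein, RPRD2, which binds RNA polymerase II, and the homeobox gene HOMEZ, at 0.043, 0.044 and 0.056.

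Angiomotins are scaffolds that bind YAP1 and the LATS kinases at junctions. AMOT (chrX:89222556-89266243) had 2.63, 4.55 and 7.44 RPKM in ICM 15, 22 and 25, against 7.91, 8.59 and 8.97 RPKM in TE 16, 23 and 24. The TE libraries were close to one another and above all ICM libraries, which spread widely. AMOT did not pass with all libraries (log2 difference -0.78, SE 0.32, 95% interval -1.505 to -0.05, limma adjusted p = 0.27). Without ICM 15 the difference was -0.47 (adjusted p = 0.45). It passed without ICM 25 (log2 difference -1.08, adjusted p = 0.025) and with library weights, and its DESeq adjusted p in the authors' deposited table was 0.026. AMOTL2 (chr16:69871863-69885418) had 1.35, 1.52 and 1.73 RPKM in ICM 15, 22 and 25, against 1.93, 1.30 and 1.90 RPKM in TE 16, 23 and 24. These groups overlapped (log2 difference -0.09, 95% interval -0.62 to 0.43, limma adjusted p = 0.88), and the sign turned with median of ratios rescaling. AMOTL2 had 58 to 117 reads per library.

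The make-up of the angiomotins varied most within ICM. AMOT took 16.5%, 31.4% and 60.4% of the summed level of AMOT, AMOTL1 and AMOTL2 in ICM 15, 22 and 25, against 53.5%, 57.6% and 48.4% in TE 16, 23 and 24. AMOTL1, the other angiomotin, which is not among the 10 genes, took 75.0%, 58.1% and 25.6% in these ICM libraries, against 33.5%, 33.7% and 41.3% in these TE libraries. In ICM 15 and 22 AMOTL1 was the main angiomotin, and in ICM 25 and the TE libraries it was AMOT. AMOTL1 itself had 11.9, 8.41 and 3.15 RPKM in ICM 15, 22 and 25, against 4.95, 5.02 and 7.66 RPKM in TE 16, 23 and 24, and did not pass (limma adjusted p = 0.83). The summed level of the family was 14.2 ± 1.80 RPKM in ICM and 16.1 ± 2.13 RPKM in TE (SD, n = 3 each). The log2 ratio of AMOTL2 to AMOT was -1.55 ± 0.57 in ICM and -2.33 ± 0.35 in TE (difference 0.78, exact permutation p = 0.2, two-sided, adjusted p = 0.25), and without ICM 15 the difference was 0.49.

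TEAD3 and AMOT shared their order over the ICM libraries, lowest in ICM 15 and highest in ICM 25. Of the 8 trophectoderm markers in the table, only TFAP2A had this order, and the others were highest in ICM 22. TFAP2A was at 3.98, 5.44 and 6.50 RPKM in ICM 15, 22 and 25, against 25.7, 37.5 and 37.9 RPKM in TE 16, 23 and 24. The summed markers were highest in ICM 22, with 26.9 RPKM in ICM 15, 56.6 RPKM in ICM 22 and 31.6 RPKM in ICM 25. GATA3, a trophectoderm regulator, was at 1.78, 5.88 and 4.54 RPKM in these ICM libraries, against 30.9, 31.1 and 36.6 RPKM in TE 16, 23 and 24. None of the 8 trophectoderm markers in the table was listed at 0 in all ICM libraries. The part of TE cells left in the ICM samples in the levels of TEAD3 and AMOT was not tested. The 9 hypoblast markers in the table (hypoblast is the endoderm layer of the ICM) summed to 95.5, 105 and 24.6 RPKM in ICM 15, 22 and 25, against 30.4 to 39.1 RPKM in TE, so ICM 25 was lowest there, as for AMOTL1.

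Beyond the 10 genes, 78 further genes of the pathway were listed by role. Of these 66 were in the table and 62 were tested. Of the 62, 1 passed as higher in ICM and 0 passed as higher in TE (0.933% of all genes each). Their median log2 difference was 0.01, where that of all genes tested was -0.15, and 13 of the 62 had values that did not overlap between the tissues, where 24.6% of all genes did not. Of these 10 lay higher in ICM, where 6.81% of all genes did, and 3 higher in TE, where 17.8% did. After median of ratios rescaling the count was 21 of 62 (18 higher in ICM and 3 higher in TE), where 25.2% of all genes did not overlap (11.4% higher in ICM and 13.8% higher in TE). Without ICM 25, 7 of the 62 were called, in a fit that called 11.5% of all genes, and 10 of the 66 in the authors' deposited table, where 16.6% of all rows were.

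The call was CSNK1E, a casein kinase that adds phosphates to YAP1 and TAZ after LATS and so marks them for degradation. It rose in ICM, with 4.74, 4.47 and 4.54 RPKM in ICM 15, 22 and 25, against 1.67, 1.32 and 1.15 RPKM in TE 16, 23 and 24. The 3 ICM values were nearly equal and far from the TE values (log2 difference 1.24, SE 0.23, limma adjusted p = 0.038). Across its 13 alternatives ICM was higher throughout and the adjusted p ranged from 0.00013 to 0.256. The call was lost without any 1 of ICM 15, ICM 22 and the TE libraries, with no filter and by voom. Those fits called from 0.0% (without TE 16) to 1.32% (voom) of all genes. It held without ICM 25 (adjusted p = 0.013), in a fit that called 11.5% of all genes. BTRC, the F-box protein that recognises the marked coactivators, had 8.28, 9.80 and 4.66 RPKM in ICM 15, 22 and 25, against 11.5, 14.0 and 12.5 RPKM in TE 16, 23 and 24, and did not pass (log2 difference -0.72, limma adjusted p = 0.26, and -0.44 without ICM 25). The other 6 genes of this list, among them 4 of the 14-3-3 proteins that hold phosphorylated YAP1, were not called.

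**Figure D4:**
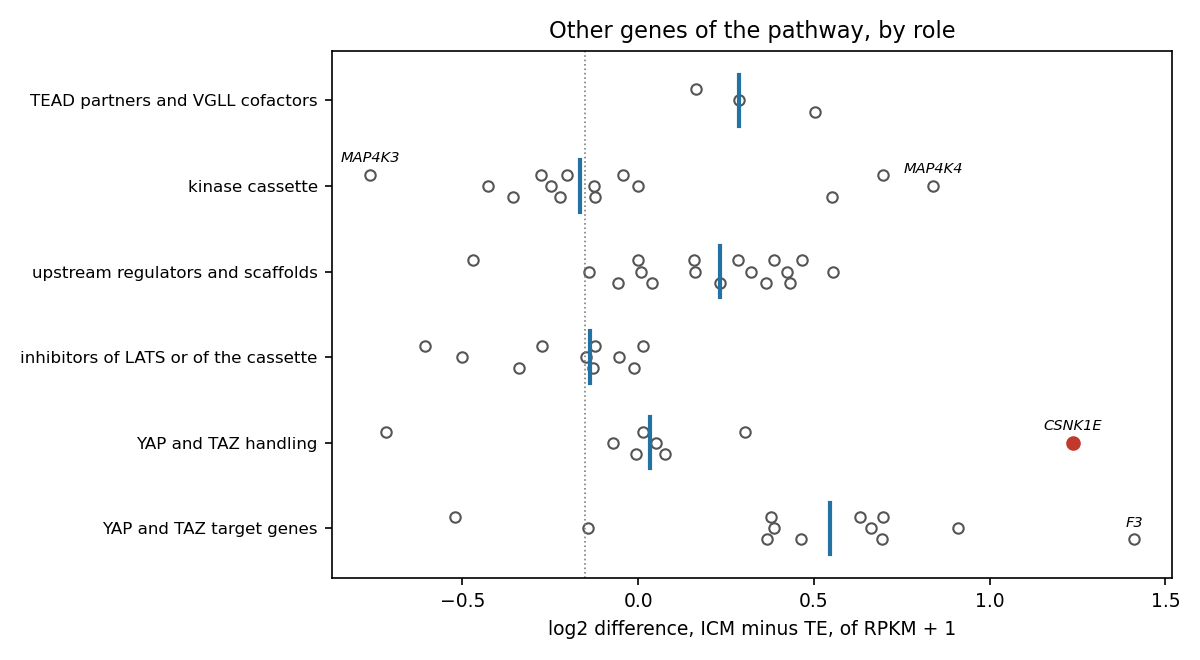
Log2 difference of ICM minus TE (log2(RPKM + 1) scale) of the tested pathway genes beyond the 10, by role, with list medians in blue and the median of all genes (-0.15) dotted. CSNK1E (filled) is the called gene, and the median of the target genes lies at 0.55.

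Among 19 listed target genes of YAP1 and TAZ, leaving out the members ANKRD1, LATS2 and AMOTL2, 13 were in the table and 12 were tested. None was called by limma (1.87% of all genes), and 3 of 12 had an unadjusted p under 0.05 (16.9% of all genes). The authors' deposited DESeq values passed for 6 of the 13 (16.6% of all rows). The median log2 difference of the 12 tested targets was 0.55, and 11 of the 12 lay above the median of all genes. F3, which encodes tissue factor, had 5.63, 12.3 and 9.89 RPKM in ICM 15, 22 and 25, against 3.15, 1.90 and 3.24 RPKM in TE 16, 23 and 24. All its ICM values were above its TE values (log2 difference 1.41, SE 0.32, limma adjusted p = 0.068). F3 passed without ICM 25 (limma adjusted p = 0.038) and with library weights (limma adjusted p = 0.017). Its DESeq adjusted p in the authors' deposited table was 1.69e-05. TGFB2, a TGF-beta ligand, stood at 3.34 ± 0.70 RPKM in ICM and 1.67 ± 0.31 RPKM in TE (limma adjusted p = 0.20).

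The further targets CYR61, CTGF and MYOF, chosen here after their values were seen, were not called by limma with all libraries. CYR61 (now CCN1), a secreted matrix protein, had 8.05, 14.9 and 15.9 RPKM in ICM 15, 22 and 25, against 19.5, 15.2 and 20.6 RPKM in TE 16, 23 and 24. It overlapped between the tissues (log2 difference -0.52, SE 0.30, limma adjusted p = 0.42), and the difference was -0.23 without ICM 15. CTGF (now CCN2), of the same family, had 6.49, 13.6 and 9.39 RPKM in ICM 15, 22 and 25, against 7.22, 5.96 and 8.05 RPKM in TE 16, 23 and 24 (log2 difference 0.38, SE 0.29, adjusted p = 0.57). Its difference was 0.14 without ICM 22 and 0.62 without ICM 15. MYOF, a membrane repair protein, had 21.7 and 20.1 RPKM in ICM 15 and 22 but 4.81 RPKM in ICM 25, against 7.36, 5.71 and 6.47 RPKM in TE 16, 23 and 24. It did not pass with all libraries (limma adjusted p = 0.39). MYOF passed without ICM 25 (log2 difference 1.55, limma adjusted p = 0.0044) and with library weights (limma adjusted p = 0.018). Its DESeq adjusted p in the authors' deposited table was 3.84e-07. The log2 difference was 0.57 without ICM 15 (limma adjusted p = 0.63), against 0.91 with all libraries. The log2 ratio of ANKRD1 to LATS2 was 1.90 ± 0.49 in ICM and -0.32 ± 1.73 in TE (difference 2.22, exact permutation p = 0.1, two-sided, adjusted p = 0.17). Without TE 23 that difference was 1.23.

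The kinase list held 14 genes, all tested, with 0 called by limma (1.87% of all genes). By the authors' deposited DESeq values 3 passed (16.6% of all rows), and by limma 2 had an unadjusted p under 0.05 (16.9% of all genes). The 2 were kinases that act on LATS beside the Hippo kinases proper, and they lay in opposite directions. MAP4K4 had 18.1, 20.4 and 25.6 RPKM in ICM 15, 22 and 25, against 10.5, 11.0 and 12.7 RPKM in TE 16, 23 and 24 (log2 difference 0.84, SE 0.24, limma adjusted p = 0.12). MAP4K3 had 7.22, 7.11 and 5.85 RPKM in ICM 15, 22 and 25, against 11.6, 11.97 and 12.6 RPKM in TE 16, 23 and 24 (log2 difference -0.76, SE 0.22, adjusted p = 0.13). Neither overlapped between the tissues, where 24.6% of all genes did not. Without ICM 25 both passed (limma adjusted p = 0.043 each), in a fit that called 11.5% of all genes. The kinases NUAK2 (log2 difference 1.02, adjusted p = 0.038) and STK38L (log2 difference 1.11, adjusted p = 0.047) also passed in that fit. With all libraries the limma adjusted p was 0.34 for NUAK2 and 0.61 for STK38L. STK3 and STK4, the Hippo kinases MST2 and MST1, were not called. STK3 had 3.57 ± 0.77 RPKM in ICM and 4.23 ± 0.64 RPKM in TE (limma adjusted p = 0.74), and STK4 had 6.25 ± 2.09 RPKM in ICM and 7.58 ± 1.39 RPKM in TE (adjusted p = 0.69).

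The 3 remaining role lists held no call by limma (1.87% of all genes), and no gene at an unadjusted p under 0.05 (16.9% of all genes). Of 17 upstream regulators and scaffolds tested, 16 lay above the median of all genes, with a list median of 0.23. Among them was the polarity gene PARD6B (14.2 ± 3.24 RPKM in ICM and 9.24 ± 1.26 RPKM in TE, limma adjusted p = 0.31). NF2, the merlin tumour suppressor that recruits LATS, was the exception, with 6.51, 11.0 and 6.18 RPKM in ICM 15, 22 and 25, against 9.30, 11.9 and 11.9 RPKM in TE 16, 23 and 24 (adjusted p = 0.44). The authors' deposited DESeq values passed for 1 gene of this list, FRMD6, which was below the filter used here. Of 10 tested inhibitors of LATS or of the Hippo kinases, the LIM protein AJUBA had the smallest p, at 2.29 ± 0.33 RPKM in ICM and 3.73 ± 1.03 RPKM in TE (limma adjusted p = 0.38). Of the TEAD cofactors, VGLL4, which competes with YAP1 for TEADs, was at 11.0 ± 2.02 RPKM in ICM and 8.80 ± 0.84 RPKM in TE (adjusted p = 0.60). VGLL1, a TEAD cofactor of human trophoblast, had 27.1, 56.0 and 15.3 RPKM in ICM 15, 22 and 25, against 20.1, 25.2 and 32.5 RPKM in TE 16, 23 and 24, and its groups overlapped (adjusted p = 0.89).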

How the data were processed

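RNA of 3 ICM and 3 TE samples was isolated (Picopure), amplified as cDNA (Nugen Ovation) and sequenced, per the labels' protocols. The deposited table gives each library in RPKM, per the file headers. The deposited RPKM had been scaled with 1 size factor per library. The authors also deposited baseMean, a signal that is the mean of DESeq's normalized counts over the libraries. The authors' p-value from DESeq was deposited raw and adjusted, beside the deposited ratio of ICM to TE and the log2 of that ratio. The submitters' processing notes name FastQC and DESeq. Aligner, counter, annotation and the build behind the deposited positions: not given in the sources used here. No gene is listed with fewer than 2 libraries at 0.4 RPKM or above. Reads were recovered from the deposited RPKM and baseMean as whole numbers, within 0.001 reads, for 100% of values of up to 1000 reads. Alternatives were no filter or a stricter one of 5 RPKM, a pseudocount of 0.1, median of ratios and quantile scaling, library weights, voom, and each library left out. Reads of amplified cDNA without molecular identifiers are not independent molecules.

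A gene was kept where 3 or more libraries reached 1 RPKM (9436 of 12270), which all 10 members did. limma 3.58.1 in R 4.3.3 was run on log2(RPKM + 1) (trend, two-sided, Benjamini-Hochberg over all genes kept, threshold 0.05), ICM minus TE, without pairing. The fit was run on simulated data that gave both groups a spread taken from TE. The median SD over all genes tested was 0.44 in ICM and 0.19 in TE, so that run does not cover the spread of ICM. The log2(RPKM + 1) scale understates the change of low genes. Intervals are 95% intervals of the fit. The labels speak of individual blastocysts without naming mares, so a p-value reflects only how far these libraries spread, which may be technical. The 5 within-library ratios were compared with exact permutation tests (SciPy 1.17.1), adjusted over the 5. Members, lists and tests were chosen with earlier results of these data known. Apart from the 10 members, the genes called and the 2 genes with the smallest p in each role list are named, with the 3 genes most like ANKRD1, LATS2 and TEAD4. Some genes that this rule names are not reported here. AMOTL1, VGLL1, CYR61, CTGF, MYOF, NUAK2, STK38L, FRMD6, NF2, STK3 and STK4 were added after their values were seen. All 10 member symbols were found in NCBI's RefSeq gene list (assembly TB-T2T), which served for names only. The row with the symbol TAZ was not taken for WWTR1. PTPN14 and NUAK2 stand in 2 role lists each and were counted once in the total.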

Additional observations from a re-analysis of the deposited data

How the results depend on the processing

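No paired analysis was run, because no label says which ICM and TE shared an embryo. Of the 10 members 1 was called with all libraries. The count was 0 unfiltered, at a filter of 5 RPKM, at a pseudocount of 0.1 and by voom on the recovered reads (limma, with 5, 4 of 8 tested, 5 and 5 members at an unadjusted p under 0.05), 3 with library weights, 4 in the authors' deposited DESeq values and 0 to 3 when 1 library was left out (3 without ICM 25, 0 without any other, with 1 to 4 members at an unadjusted p under 0.05 in those). Of the 62 further pathway genes 1 was called. This became 0 unfiltered, at the filter of 5 RPKM and by voom (7, 4 and 7 at an unadjusted p under 0.05), 4 with library weights, 10 in the authors' deposited values and 0 to 7 with 1 library left out (7 without ICM 25, 0 without any other, with 4 to 10 at an unadjusted p under 0.05). Over all genes 176 were called, against 114 unfiltered, 81 at the filter of 5 RPKM, 112 at the pseudocount of 0.1, 760 with library weights, 2039 in the authors' deposited values and 0 to 1086 with 1 library left out. It was 1086 without ICM 25, 18 without ICM 15, 76 without ICM 22, 0 without TE 16 (983 at an unadjusted p under 0.05), and 1 each without TE 23 and TE 24. The cause of these changes was not tested. Of 426 alternative values of 31 pathway genes, 7 turned the direction, all of genes not called: YAP1 was at -0.0059 without ICM 15, -0.015 without ICM 22 and -0.039 without TE 16 (with 1 library left out, up to 0.14 without TE 23, and over all alternatives up to 0.17 with median of ratios rescaling), LATS1 at -0.027 without ICM 15 (up to 0.43 without ICM 25), AMOTL1 at -0.12 without ICM 15 (up to 0.70 without ICM 25), VGLL1 at -0.31 without ICM 22 (up to 0.60 without ICM 25), and AMOTL2 at 0.0070 with median of ratios rescaling (log2 differences). The 5 within-library ratios kept their direction with 1 RPKM added to each part and with any library left out. At 58 to 117 reads for AMOTL2 and 6 to 112 reads for ANKRD1 in TE, counting error adds to the spread of these low values.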
